A study of Mus musculus with 8 samples.

Results

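Neural crest cells sorted for p75 from E11.5 mouse embryos were compared with samples named LM and UM from the same series. The comparison used 6 of the 8 arrays: 2 of p75-sorted cells, 2 of LM and 2 of UM. These were taken by their labels, and the 2 arrays named OFT were left out. Each origin had 1 control and 1 mutant array. The p75-sorted control and the p75-sorted mutant each came from 3 pooled embryos of that genotype, and their labels describe cranial neural crest cells from head and thorax. The label of the p75-sorted mutant adds that its RNA extraction was one advised for small samples, a remark that the label of the p75-sorted control does not carry. The labels of the other 4 arrays give LM or UM, control or mutant, and head/neck as source, which the p75-sorted arrays carry too. LM and UM are not spelled out there, so these names are kept. Only the series title gives E11.5 for the LM and UM arrays, and it calls the groups wild type and FAK mutants. The allele, any Cre driver and the embryos behind each LM or UM array are not given in the sources used here.

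The neural crest is a migratory population that leaves the dorsal neural tube and gives rise to facial skeleton and connective tissue, to sensory and autonomic ganglia, to Schwann cells and to melanocytes. p75, the product of Ngfr, is a low-affinity receptor for neurotrophins on the surface of crest cells, and it stays on glial and neuronal derivatives while much facial mesenchyme lowers it. FAK, focal adhesion kinase, relays signals from integrins at sites where cells hold on to matrix. Its own gene was not analysed here, so the mutation was not checked at the targeted transcript.

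Every value below is an array intensity, or log2(intensity + 32), for 1 probe set a gene, the brightest over the 6 arrays. A difference is p75-sorted minus LM and UM on that log2 scale, from a limma fit with a genotype term, with its moderated SE after ±; adjusted p is limma's p after Benjamini-Hochberg adjustment over 12338 tested genes. A gene is called at an adjusted p under 0.05. Fold changes on this scale understate the change of dim genes. Sorting, pooling and any processing batch fall on the same arrays as the p75 origin and cannot be told apart from it. Nothing in the labels says that LM and UM are replicates of each other, and each origin and genotype has 1 array, so the p-values measure the spread among these 6 arrays.

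The p75-sorted arrays stood apart from the LM and UM arrays in their control probe sets as well. For Gapdh the signal toward the 3' end divided by that toward the 5' end gave 2.82 and 4.91 for the sorted control and mutant but 0.700 to 0.856 for LM and UM, while Actb gave 1.57 and 1.65 against 1.42 to 1.92. The brightest 18S probe set had 6083 and 8542 against 314 to 500.4. The part of these differences in any result below was not tested. In log2 values over the tested genes the p75-sorted pair correlated with each other at 0.982, the LM and UM arrays with each other at 0.968 to 0.985, and p75-sorted arrays with LM or UM arrays at 0.866 to 0.887. These points share genes and probe sets and are given as a description.

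Between p75-sorted cells and LM and UM, 5883 of 12338 tested genes were called, which is 47.7%. Of these 3656 were higher in p75-sorted cells (29.6% of tested genes) and 2227 lower (18.0%). Both p75-sorted arrays lay above all 4 LM and UM arrays for 38.1% of tested genes and below all 4 for 25.3%. The difference was at least 1 in size for 2017 called genes and at least 2 for 248. LM and UM themselves differed far less often, with 167 genes called in the same 6 arrays. The total fell to 3010 without the p75-sorted control array and to 2351 without the p75-sorted mutant array. The split of directions moved with scaling: 62.1% of calls were higher as deposited, 50.3% after quantile normalization and 43.3% after centring each array on its median. The median difference of all tested genes was 0.11 as deposited, -0.01 after quantile normalization and -0.10 after centring. Differences below are best read against that shift. A gene that passed the filter on low values through the p75-sorted arrays alone had to be higher there. This held for 3 of 16 tested neurotrophin genes, 3 of 19 Schwann precursor and glia genes and 1 of 22 crest specifiers. It held for 3 of 19 neural tube genes, 4 of 27 neuronal cytoskeleton genes and 2 of 20 sensory and autonomic factors. So it did for 7 of 44 immediate early genes, 4 of 46 migration genes and 2 of 45 FAK and adhesion partners. The same was true of 2 of 25 skeletal muscle genes and 2 of 14 cartilage and bone genes. As given below, it also held for most Zic and Hox genes and some cardiac genes. The list counts include them. Each list count below stands against 29.6% higher and 18.0% lower over all tested genes.

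Ngfr, which encodes the sorting antigen, had an intensity of 1043 and 1422 on the p75-sorted control and mutant arrays, 63.4 and 47.0 on the LM control and mutant arrays, and 56.9 and 48.2 on the UM control and mutant arrays. Both p75-sorted arrays lay far above the other 4. The difference was 3.87 ± 0.18, or 14.6-fold, with adjusted p = 1.29e-05. Since the cells were sorted on p75, this checks the sort and is not a finding. The other probe sets of Ngfr were dim on these arrays, with mean intensities of 2.44 and 4.72 over the 6 arrays.

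Sox10, a transcription factor of migrating crest and its glial and pigment derivatives, lay at 1512 and 1620 on the p75-sorted arrays, 33.1 and 34.4 on the LM arrays and 37.1 and 25.3 on the UM arrays, control first and mutant second throughout. The sorted cells and the rest did not overlap, and the difference was 4.63 ± 0.15 (adjusted p = 3.27e-06). Summed over the 4 markers Ngfr, Sox10, Fos and Zic1, intensity reached 10155 and 10511 for the sorted pair but 153 to 262 for LM and UM. Fos, at 5426 and 5398 in the sorted pair, was the largest part of this sum, and Ngfr encodes the sorting antigen. Fos and Zic1 are not restricted to crest, so the sum is given as a description only.

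**Figure D1:**
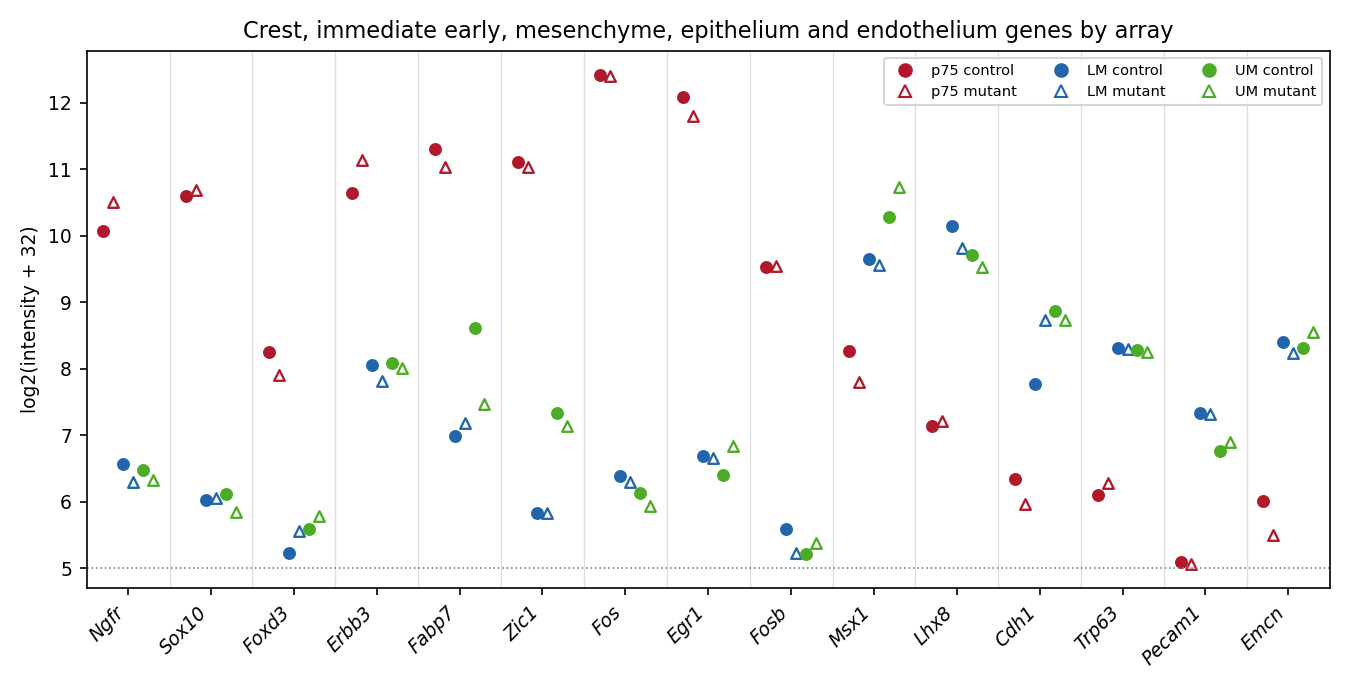
Values of 15 genes as log2(intensity + 32) on the vertical axis, with an intensity of 0 at the dotted line. Filled circles are control arrays and open triangles mutant arrays, in red for p75-sorted cells, blue for LM and green for UM; each point is 1 array. From Ngfr to Fosb both red points lie above the other 4, and from Msx1 to Emcn both lie below them.

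The neurotrophin system was followed from ligands to receptors. Its list had 16 tested members, all of which passed the filter on low values. Of these 10 were called higher and 2 lower, with a median difference of 0.76. Over all tested genes 29.6% were higher and 18.0% lower, with a median of 0.11. The 10 include Ngfr, which encodes the sorting antigen and only checks the sort. Of the 16 members, 3 passed the filter through the p75-sorted arrays alone and had to be higher. Among ligands, Bdnf, which signals through TrkB, lay at 36.5 and 46.6 on the p75-sorted arrays and 78.2, 92.3, 91.2 and 98.9 on the LM control, LM mutant, UM control and UM mutant. At another probe set, of mean intensity 69.6 against 73.9 for the brightest, it differed by -0.24 and was not called. At the brightest it was lower by a difference of -0.73 ± 0.14 (adjusted p = 0.00365). Its call was lost without the p75-sorted control, at -0.70 and adjusted p = 0.057, and without the p75-sorted mutant, at -0.77 and adjusted p = 0.051. The neurotrophin-4 gene, listed as Ntf5, also lay lower, at 15.4 and 14.6 against 47.8 to 75.3, with a difference of -0.89 ± 0.17 (adjusted p = 0.00304). Without the p75-sorted control its value was -0.82, with adjusted p = 0.059.

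Of the Trk receptors, Ntrk2, the TrkB gene, had intensities of 335 and 344 in p75-sorted cells and 102 to 127.7 in LM and UM, a difference of 1.34 ± 0.14 (adjusted p = 0.000259). Ntrk3, the TrkC gene, lay at 80.0 and 76.7 against 8.54 to 19.0, a difference of 1.33 ± 0.15 (adjusted p = 0.000295). The groups did not overlap for Ntrk2. Ntrk3 passed the filter on low values only through the p75-sorted arrays and so had to be higher. Of the p75 co-receptors of the sortilin family, Sort1 and Sorcs2 were called higher as well. Sorcs1 and Sorcs3 were also called higher. Like Ntrk3, however, Sorcs1 and Sorcs3 passed the filter on low values only through the p75-sorted arrays and so had to be higher. Sort1, the sortilin gene, differed by 1.06 ± 0.15, Sorcs2 by 1.19 ± 0.15 and Sorcs1 by 0.95 ± 0.15. Sorcs3 differed by 0.59 ± 0.16 (adjusted p = 0.0173), and lost its call without the p75-sorted control (0.46, adjusted p = 0.194) and without the p75-sorted mutant (0.71, adjusted p = 0.083). Maged1, which encodes an intracellular partner of p75, rose from 1523 to 1713 in LM and UM to 2862 and 2950 in p75-sorted cells, a difference of 0.82 ± 0.14. Nradd, a gene related to Ngfr, was not called at -0.02 ± 0.17, and neither were Rtn4r at 0.36 ± 0.16, Bex3 at -0.20 ± 0.17 and Traf6 at -0.28 ± 0.14. For Nradd the sign turned against LM alone, at 0.12. Kidins220, a scaffold of Trk receptors, differed by 1.49 ± 0.17 at its brightest probe set but by -1.11 at another that was also called, and by 0.01 with adjusted p = 0.935 as a mean of probe sets.

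Neuregulin signalling through ErbB receptors supports crest-derived Schwann cell precursors. Erbb3, the neuregulin receptor of that lineage, lay at 1565 and 2230 in p75-sorted cells against 234 and 193 in LM and 241 and 226 in UM. The difference was 2.90 ± 0.18 (adjusted p = 4.34e-05), with no overlap. Its partner Erbb2 was not called, at 106 and 161 against 90.7 to 138 and a difference of 0.22 ± 0.20. That sign turned without the p75-sorted mutant array, to -0.11. Egfr differed by 0.08 ± 0.22, and the sign turned to -0.13 after quantile normalization and after centring. Nrg2 and Nrg4, ligands of the family, differed by -0.27 ± 0.16 and -0.29 ± 0.19 and were not called. Of the 8 members with a probe set, 5 passed the filter on low values and 1 of those was called.

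Genes of Schwann cell precursors and glia were higher in p75-sorted cells. Of 20 members with a probe set 19 were tested, 14 were called higher and 0 lower, and the median difference was 2.32. Fabp7, a fatty acid binding protein of early glia, lay at 2494 and 2056 in p75-sorted cells, 95.2 and 113 in LM, and 361 and 146 in UM. All 4 LM and UM values were below the p75-sorted ones, with a difference of 3.60 ± 0.38 (adjusted p = 0.000248). L1cam, an adhesion molecule of axons and Schwann cells, differed by 3.19 ± 0.27, from 36.3 to 103 in LM and UM to 807 and 874. Cdh19, a cadherin of nerve-associated crest cells, differed by 3.14 ± 0.15, from 24.0 to 34.9 up to 483 and 510. Gfra3, the artemin receptor, differed by 2.71 ± 0.25. Several defining genes of the lineage were not analysed here.

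Some melanoblast genes moved in the same direction, apart from Ednrb at lower levels. Of 12 members with a probe set 6 passed the filter, 4 of these were called higher and 0 lower. The 4 were the dimmer Pmel, Dct and Mitf and the bright Ednrb, which is described with the crest specifiers below. Kit and Slc45a2 were not called. Pmel, a melanosome matrix protein, had intensities of 208 and 260 against 15.7 to 39.7, a difference of 2.20 ± 0.14 (adjusted p = 4.62e-05). Dct, a melanin synthesis enzyme, lay at 204 and 154 against 19.2 to 52.8, a difference of 1.68 ± 0.21. Mitf, the lineage's transcription factor, differed by 0.81 ± 0.19 (adjusted p = 0.00778). Its call was lost without the p75-sorted control (0.59, adjusted p = 0.143) and as a mean of probe sets (0.14, adjusted p = 0.347). Tyrp1 did not pass the filter, with intensities of 5.58 and 12.9 in p75-sorted cells. Neither did Tyr, Mlana, Oca2, Gpnmb and Gpr143.

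The transcription factors that specify the crest were called at shares near those of all tested genes. These were 27.3% higher and 22.7% lower, against 29.6% and 18.0%. Of 22 tested, 6 were called higher, 5 lower and 11 neither, with a median difference of -0.03. The counts were 4 and 2 without the p75-sorted control, and 4 and 1 without the p75-sorted mutant. Foxd3, a factor of premigratory crest and early glia, lay at 272 and 207 against 5.70 to 23.0, and its difference was 2.53 ± 0.19 (adjusted p = 7.67e-05). It passed the filter on low values only through the p75-sorted arrays and so had to be higher. Ednrb, the endothelin-3 receptor of crest cells that form pigment and enteric neurons, had 2643 and 3423 against 95.3 to 155, a difference of 4.27 ± 0.19 (adjusted p = 1.29e-05). Its other tested probe sets differed by 3.21 and 0.87. Msx1, a homeobox gene of crest and of facial mesenchyme, was lower, at 275 and 191 against 768 and 722 in LM and 1211 and 1668 in UM. Its difference was -2.02 ± 0.33 (adjusted p = 0.00175), and it missed the threshold without the p75-sorted mutant, at -1.70 and adjusted p = 0.063. Sox9, which acts in crest and in cartilage, was lower by -0.98 ± 0.15, at 152 and 172 against 323 to 377. Snai2, which drives the departure of crest from epithelium, differed by -0.81 ± 0.19, and Twist1, a factor of mesenchyme, by -0.48 ± 0.15.

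Zic genes encode zinc finger factors of the dorsal neural tube and of somites. All 4 tested members, Zic1, Zic2, Zic4 and Zic5, were called higher, each with both p75-sorted arrays above the other 4. Zic2, Zic4 and Zic5 passed the filter on low values only through the p75-sorted arrays and so had to be higher, which leaves Zic1 as the member whose level was open. Zic1 had intensities of 2175 and 2071 in p75-sorted cells, 24.8 and 25.1 in LM, and 130 and 109 in UM. Its level therefore also differed between the other 2 origins, and the difference from p75-sorted cells was 5.24 against LM and 3.84 against UM. Against both together it was 4.54 ± 0.44 (adjusted p = 0.000196), and its other tested probe set gave 4.44. Zic4 differed by 1.87 ± 0.16, Zic2 by 1.57 ± 0.16 and Zic5 by 1.48 ± 0.17, and the highest intensity of these 3 was 152, in the p75-sorted mutant for Zic4.

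Other genes of neural tube progenitors did not follow Zic1. Of 19 tested, 4 were called higher and 1 lower, with a median difference of -0.09. These were 21.1% and 5.26%, both below the 29.6% and 18.0% of all tested genes. Only 1 was higher without the p75-sorted control, and 2 were lower without the LM control. Nes, an intermediate filament gene of progenitors, had 286 and 830 in p75-sorted cells against 99.0 and 6.73 in LM and 83.9 and 58.1 in UM. It differed by 2.62 ± 0.52 (adjusted p = 0.00425), but only by 1.37, with adjusted p = 0.091, without the p75-sorted mutant array. Emx2, a homeobox gene of the forebrain and other tissues, was lower by -1.52 ± 0.16. Of the defining markers, Sox2 at 582 and 548 lay between LM, at 178 and 255, and UM, at 788 and 691. Otx2, a gene of forebrain and midbrain, lay at 66.2 and 32.2 in p75-sorted cells, at 4.0 and 0.624 in LM and at 194 and 181 in UM. Sox1 and En2 did not pass the filter. The markers' summed intensity was 651 to 723 in p75-sorted cells and 197 to 1058 in LM and UM, so the groups overlapped.

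Genes of neuronal cytoskeleton and membrane were widely higher in p75-sorted cells. Of 27 tested, 24 were called higher and 0 lower, with a median difference of 1.80; without the p75-sorted control 11 were called and without the p75-sorted mutant 15. Ina, a neuronal intermediate filament, lay at 1126 and 605 in p75-sorted cells, 6.50 and 14.5 in LM, and 72.7 and 63.8 in UM. The difference was 3.72 ± 0.43 (adjusted p = 0.000382). Stmn3 and Crmp1, which act on microtubules and growth cones, differed by 3.53 ± 0.34 and 3.42 ± 0.16. Dcx, the microtubule protein of young neurons, lay at 1091 and 662 against 38.2 to 64.5, a difference of 3.36 ± 0.22. For Ina, Stmn3, Crmp1 and Dcx the p75-sorted control was above the p75-sorted mutant.

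Factors of sensory and autonomic neurons gave a mixed picture. Of 20 tested, 8 were called higher and 2 lower, with a median difference of 0.33; without the p75-sorted control 3 were higher, and without the p75-sorted mutant 4. Ebf1, a factor of developing neurons, differed by 1.59 ± 0.17, at 402 and 317 against 82.2 to 110. Pou4f1, the Brn3a factor of sensory ganglia, lay at 231 and 135 against 18.2 to 54.9, a difference of 1.68 ± 0.28 (adjusted p = 0.00174). Without the p75-sorted control its value was 1.37, with adjusted p = 0.054. Prph, the peripheral neuron filament, had 160 and 65.8 against 1.0 to 14.0. Eya1, a placode and mesenchyme gene, was lower by -1.93 ± 0.24, at 237 and 304 against 789 to 1503. The neuron markers Tubb3, Isl1, Pou4f1 and Prph had summed intensities of 1097 to 1744 in p75-sorted cells and 277 to 603 elsewhere. All 4 were called higher, Isl1 by limma at an adjusted p of 0.0458. Prph passed the filter on low values only through the p75-sorted arrays and so had to be higher.

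Immediate early genes, which cells transcribe within minutes of a stimulus without new protein synthesis, included Fos and Egr1, the 2 largest differences in the comparison. Of 47 members with a probe set 44 were tested, 33 were called higher and 2 lower, and the median difference was 1.29. Fos, which encodes a subunit of the AP-1 factor, had an intensity of 5426 and 5398 in p75-sorted cells, 51.8 and 46.5 in LM, and 37.9 and 29.5 in UM. The genotypes were alike in p75-sorted cells and the groups stood far apart. The difference was 6.22 ± 0.17, or 74.7-fold on this scale, with adjusted p = 1.73e-06.

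Promoters of 4 of these genes are printed because Fos, Fosb, Dusp1 and Srf were called higher and carry the sites known for stimulus-driven transcription. Each is the 250 bases before the annotated start, read 5′ to 3′ on the gene's own strand, from RefSeq on GRCm38.p6. Capitals mark, in Fos and Fosb, the TGACG of the cyclic AMP response element short site; in Dusp1 that short site and the full element TGACGTCA; and in Srf the short site and both CArG boxes, the serum response element core. The promoters lie at chr12:85473640-85473889 on the plus strand for Fos, chr7:19310046-19310295 on the minus strand for Fosb, chr17:26508473-26508722 on the minus strand for Dusp1 and chr17:46556163-46556412 on the minus strand for Srf.
Fos: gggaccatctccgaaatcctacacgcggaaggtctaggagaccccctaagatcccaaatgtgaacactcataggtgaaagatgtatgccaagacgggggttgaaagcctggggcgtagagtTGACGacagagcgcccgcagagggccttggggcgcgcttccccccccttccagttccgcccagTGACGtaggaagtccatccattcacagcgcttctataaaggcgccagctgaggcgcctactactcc
Fosb: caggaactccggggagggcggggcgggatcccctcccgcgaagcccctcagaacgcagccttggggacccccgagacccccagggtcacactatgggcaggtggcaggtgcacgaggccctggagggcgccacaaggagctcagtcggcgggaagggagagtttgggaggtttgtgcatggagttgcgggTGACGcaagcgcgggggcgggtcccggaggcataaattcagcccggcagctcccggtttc
Dusp1: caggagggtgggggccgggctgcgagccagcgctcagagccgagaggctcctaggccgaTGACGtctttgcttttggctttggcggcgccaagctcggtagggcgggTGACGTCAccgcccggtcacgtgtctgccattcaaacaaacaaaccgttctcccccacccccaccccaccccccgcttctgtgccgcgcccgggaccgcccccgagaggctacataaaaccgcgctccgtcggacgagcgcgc
Srf: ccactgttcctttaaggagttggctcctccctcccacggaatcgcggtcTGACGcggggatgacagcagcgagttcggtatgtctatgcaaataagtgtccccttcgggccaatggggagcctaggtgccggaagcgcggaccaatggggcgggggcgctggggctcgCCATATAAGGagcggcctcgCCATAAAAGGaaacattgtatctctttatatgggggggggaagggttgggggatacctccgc

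Counted from the start site, with -1 the base just before it, the Fos short sites begin at -129 and -66 and that of Fosb at -60. The full element of Dusp1 begins at -143, and the CArG boxes of Srf at -82 and -62. Searched on both strands over 300 bases, 250 before and 50 after the start, TGACG was in 30 of 52 promoters of the tested immediate early genes (57.7%) and in 20.8% of all 32851 promoters in the table. TGACGTCA, which contains the short site, was in 7.69% of them against 1.79% of all. The CArG box was in 13.5% against 1.63%, and the AP-1 site TGANTCA in 3.85% against 7.81%. These shares count promoters, and some genes have several that lie close together, such as Csrnp1, Egr2 and Maff. The 7 promoters with a CArG box were those of Dusp5, Srf and Zfp36 and several neighbouring ones of Egr2. RefSeq promoters were matched for 37 of the 44 tested genes. A match describes these letters only, and binding was not measured.

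Other AP-1 subunits and early factors were higher too. Egr1, a zinc finger factor, lay at 4323 and 3545 in p75-sorted cells against 52.9 to 82.2, a difference of 5.30 ± 0.17 (adjusted p = 3.27e-06). Fosb, another AP-1 subunit, lay at 705 and 712 against 5.14 to 16.2, a difference of 4.18 ± 0.16. Jun differed by 1.92 ± 0.15, at 2073 and 1963 against 448 to 554, and Junb by 1.65 ± 0.18. All p75-sorted values of these 4 genes lay above all LM and UM values. Fosb passed the filter on low values only through the p75-sorted arrays and so had to be higher.

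Ccn1, a matricellular protein gene and target of serum response factor, differed by 3.75 ± 0.18, and Klf6, a zinc finger factor, by 3.19 ± 0.18. Dusp1, a phosphatase that shuts off MAP kinases, lay at 2136 and 1375 against 216 to 286, a difference of 2.64 ± 0.19. Srf itself, the factor that binds CArG boxes, differed less, by 0.94 ± 0.15, at 438 and 429 against 189 to 237. Egr2, which is both an early gene and a Schwann cell factor, differed by 2.32 ± 0.16. Atf3, an early stress factor, differed by 1.33 ± 0.20, and Ier2 by 1.63 ± 0.15. The 2 members called lower were Dusp6, a phosphatase of ERK, at -0.86 ± 0.25 and Plk2, a polo-like kinase, at -0.67 ± 0.20; no member was called lower without the p75-sorted control, without the p75-sorted mutant or with a pseudocount of 1. The list's count of higher genes was 26 without the p75-sorted control and 29 without the p75-sorted mutant. A sort and the time it takes are known only for the p75 pair, so they cannot be told apart from origin in these values.

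Heat shock genes were called at shares near those of all tested genes, 25.0% higher and 20.8% lower against 29.6% and 18.0%. Of 24 tested, 6 were called higher and 5 lower. Without either p75-sorted array in turn these became 4 and 1, and without the UM mutant 3 were lower. Cryab, a small heat shock protein, lay at 559 and 462 against 26.1 to 29.7, a difference of 3.17 ± 0.14 (adjusted p = 1.29e-05). Hspa1a, an inducible Hsp70, lay at 320 and 158 against 2.76 to 28.1, a difference of 2.37 ± 0.30. Hspe1, a mitochondrial co-chaperone, was lower by -1.52 ± 0.18. The list's median was 0.00, and -0.21 after centring.

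**Figure D2:**
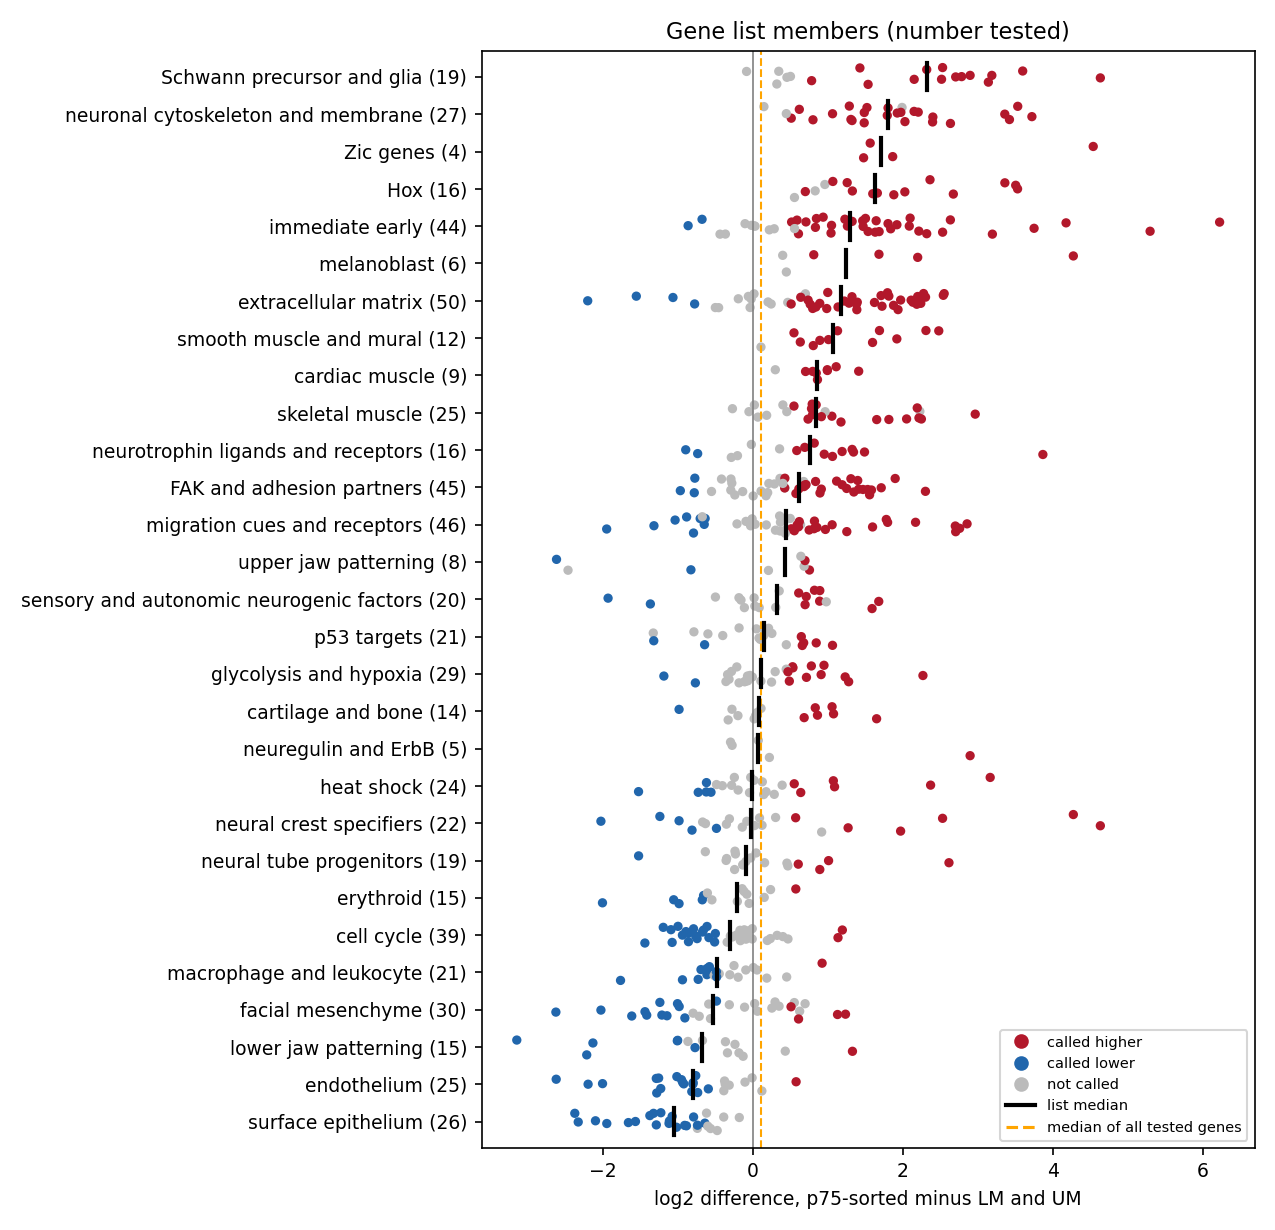
Differences of the tested members of 29 gene lists, p75-sorted minus LM and UM on the log2(intensity + 32) scale, on the horizontal axis, with 1 point a gene and the number tested in brackets. Red points were called higher, blue lower and grey neither; black bars are list medians and the dashed line is the median of all tested genes, 0.11. The Schwann precursor and glia list has the highest median, 2.32, and the surface epithelium list the lowest, -1.04.

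Hox genes mark position along the body axis, and none of the most anterior head crest carries them. Of 33 with a probe set 16 passed the filter, of which 13 were called higher and 0 lower. Of the 16, 9 passed through the p75-sorted arrays alone, Hoxc4, Hoxb5, Hoxc5, Hoxb6 and Hoxa9 among them, and had to be higher, so this count is not a share of all Hox genes. Hoxb3, of the posterior hindbrain and neck, lay at 992 and 727 in p75-sorted cells, 60.9 and 152 in LM, and 10.7 and 14.5 in UM. It differed by 3.53 ± 0.53, by 2.76 against LM and 4.31 against UM. Hoxc4 had 415 and 396 against 1.68 to 25.0, a difference of 3.51 ± 0.22, and Hoxb5 had 324 and 301 against 0.513 to 3.64, a difference of 3.36 ± 0.14 (adjusted p = 9.31e-06).

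Further back along the axis, Hoxc5 differed by 2.67 ± 0.21 and Hoxb6 by 2.03 ± 0.25. Hoxa9, of the trunk, lay at 131 and 207 against 1.52 to 18.1, a difference of 2.36 ± 0.20. Hoxa2, expressed in crest of the second arch, was not called: it lay at 177 and 92.7 in p75-sorted cells, 131 and 163 in LM, and 4.39 and 8.63 in UM. Its values overlapped LM and lay above UM, and Hoxb2 behaved alike, at 82.4 and 66.2 against 46.7 and 96.2 in LM and 3.52 and 2.92 in UM.

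Of 30 tested facial mesenchyme genes, 12 were called lower in p75-sorted cells, 4 higher and 14 neither, with a median difference of -0.52. Lower and higher calls were 6 and 1 without the p75-sorted control, and 5 and 0 without the p75-sorted mutant. Lhx8, a factor of oral mesenchyme, lay at 109 and 117 in p75-sorted cells, 1101 and 866 in LM, and 805 and 709 in UM. All 4 LM and UM arrays lay above the p75-sorted pair, with a difference of -2.62 ± 0.18 (adjusted p = 5.91e-05). Its relative Lhx6 differed by -1.61 ± 0.17 and Tbx3, a T-box factor, by -1.43 ± 0.22. Prrx1, a general factor of facial and limb mesenchyme, still had 1569 and 1297 in p75-sorted cells against 2595 to 4874, a difference of -1.21 ± 0.24. Pdgfra, a receptor of mesenchyme, was not called at -0.58 ± 0.22, its brightest probe set, while its 3 tested probe sets fitted singly gave 1 call higher and 2 lower, from 1.07 to -2.24. Prrx2 was not called at -0.11 ± 0.34. The markers Prrx1, Prrx2, Pdgfra, Twist1 and Alx1 together summed to 4121 to 4320 in p75-sorted cells and 7602 to 9115 in LM and UM.

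Jaw patterning genes separated LM from UM, so the same gene could stand differently against each. Pitx1, a factor of the lower jaw, lay at 20.9 and 16.05 in p75-sorted cells, 1032 and 1189 in LM, and 124 and 161 in UM. It was lower by -4.50 against LM and -1.79 against UM, and by -3.14 ± 0.83 against both (adjusted p = 0.0144). Without the p75-sorted control the adjusted p was 0.117, at -3.34, and without the p75-sorted mutant 0.170, at -2.95. Dlx5, a homeobox gene of the lower part of the arch, lay at 66.7 and 81.9 against 876 and 765 in LM and 225 and 280 in UM. It differed by -2.21 ± 0.50, and lost its call without the p75-sorted control (-2.13, adjusted p = 0.102) or mutant (-2.29, adjusted p = 0.097).

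Hand2, a factor of the distal lower jaw, was not called, since p75-sorted cells lay between the origins: 156 and 201 against 1119 and 936 in LM and 11.8 and 33.0 in UM. Alx1, a homeobox gene of the frontonasal and maxillary region, lay at 131 and 134 against 264 and 284 in LM and 2702 and 2588 in UM. It differed by -0.89 against LM and -4.02 against UM and was not called against both, at -2.46 ± 0.95 (adjusted p = 0.0618). Tbx22, a palate factor, was lower against each, at 23.4 and 28.1 against 207 to 502, with a difference of -2.61 ± 0.35. In the lower jaw list 6 of 15 tested members were called lower and 1 higher, and 0 were called lower without either p75-sorted array in turn. In the upper jaw list 2 of 8 were called in each direction, or 25%, against 29.6% higher and 18.0% lower over all tested genes. The higher calls fell to 0 without the p75-sorted control, after quantile normalization, after centring and with a pseudocount of 1, and to 1 without the p75-sorted mutant, the LM control or the UM mutant.

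**Figure D3:**
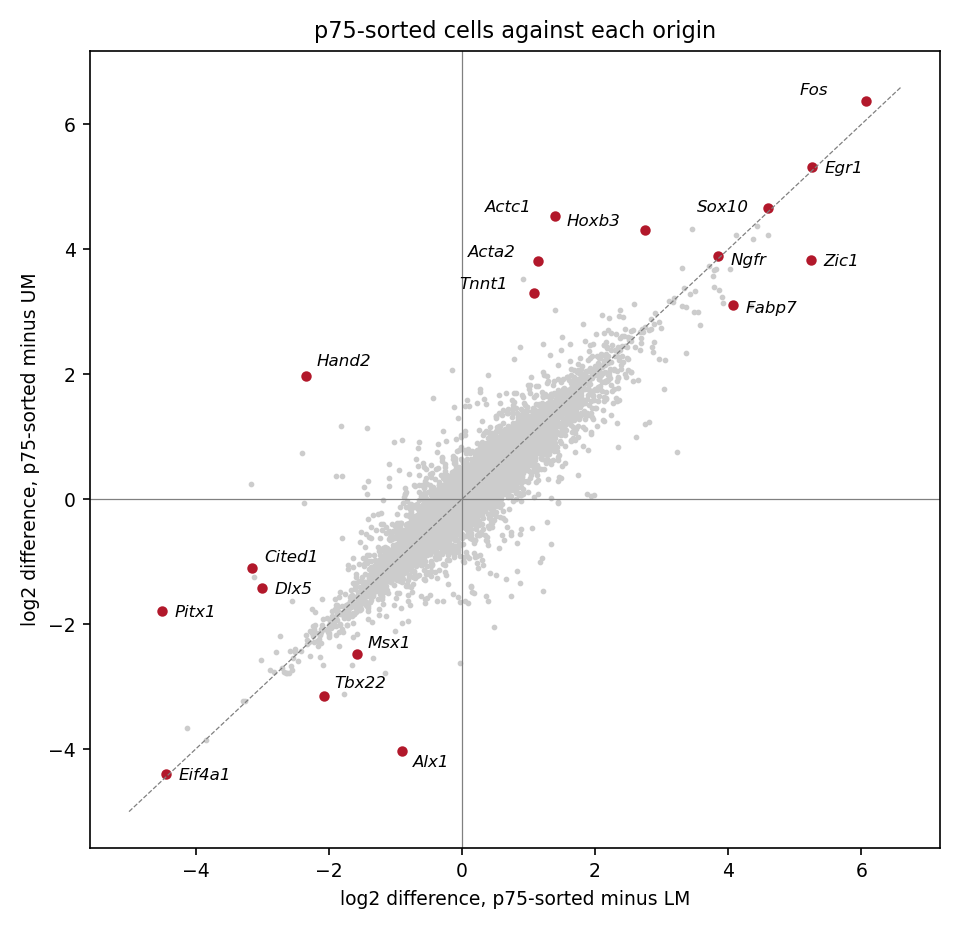
Differences of p75-sorted cells from LM (horizontal) and from UM (vertical) on the log2(intensity + 32) scale, 1 point for each of 12338 tested genes, with the dashed line where both are equal. Fos, Sox10, Ngfr and Eif4a1 lie near the line, while Pitx1 (-4.50 and -1.79), Alx1 (-0.89 and -4.02) and Hand2 (-2.34 and 1.97) lie far from it.

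Many muscle genes were higher in p75-sorted cells. Of 29 skeletal muscle genes with a probe set 25 were tested, 16 were called higher and 0 lower, with a median difference of 0.57 against LM and 1.16 against UM. The count fell to 6 without the p75-sorted control, to 2 without the p75-sorted mutant, to 9 after quantile normalization and to 4 with a pseudocount of 1. Actc1, an actin of early heart and skeletal muscle, lay at 1541 and 2325 in p75-sorted cells, 552 and 875 in LM, and 31.8 and 77.0 in UM. Its difference was 2.97 ± 0.95 (adjusted p = 0.0315), with 1.40 against LM and 4.53 against UM. Without the p75-sorted control it was 2.91 with adjusted p = 0.210, without the p75-sorted mutant 3.03 with 0.209, and without the UM mutant 2.32 with 0.057. Mef2c, a factor of muscle and also of crest, lay at 787 and 1003 against 146 to 173 at its brightest probe set. The difference there was 2.25 ± 0.15 (adjusted p = 4.51e-05). Its other tested probe sets differed less, by 0.88, 0.72, 0.55 and 0.46, the last not called.

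Of the defining muscle markers, Myod1 was called higher, at 162 and 287 against 11.7 to 87.3, while Myf5 at 40.7 and 61.0 lay between LM, at 108 and 164, and UM, at 7.11 and 16.6. Myog, the differentiation factor, had 316 and 693 against 225 and 241 in LM and 16.4 and 6.92 in UM, and was not called (adjusted p = 0.0529). The 4 markers summed to 2059 to 3366 in p75-sorted cells and 67.0 to 1367 in LM and UM. In bulk samples fewer cells of a type and less RNA per cell cannot be told apart, here and for every cell type below.

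Smooth muscle and mural genes were higher for 11 of 12 tested members, with a median difference of 1.07. The count was 6 without the p75-sorted control and 8 without the mutant. Tagln, an actin-binding protein of smooth muscle, lay at 266 and 279 against 20.8 to 42.6, a difference of 2.31 ± 0.17. Mcam, an adhesion molecule of mural and other cells, differed by 1.92 ± 0.20. For cardiac muscle 9 of 19 members with a probe set passed the filter, and 8 of these were called higher, 3 without the p75-sorted control and 4 without the mutant. Of the 9, 5 passed through the p75-sorted arrays alone and had to be higher, so the count is no support for the list. Their levels were low: Myh7, a myosin heavy chain, lay at 73.3 and 50.3 against 3.56 to 25.5, a difference of 1.11 ± 0.21, or 1.01 with adjusted p = 0.066 without the p75-sorted control. The cardiac markers summed to 247 to 264 in p75-sorted cells and 24.3 to 77.5 elsewhere, and Myl7, the atrial light chain, did not pass the filter.

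Of 26 tested epithelial genes 19 were called lower and 0 higher, with a median difference of -1.04; 9 were lower without the p75-sorted control and 7 without the mutant. Cdh1, the epithelial cadherin, lay at 49.3 and 30.8 against 187 and 392 in LM and 437 and 396 in UM, a difference of -2.37 ± 0.30 (adjusted p = 0.000568). Trp63, the factor of stratified epithelium, lay at 36.6 and 46.2 against 274 to 285, a difference of -2.09 ± 0.14. Dsp, a desmosome protein, differed by -2.32 ± 0.28. The markers Epcam, Cdh1, Krt8, Krt18 and Trp63 summed to 399.6 to 433 in p75-sorted cells and 1193 to 2269 in LM and UM.

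Endothelial genes were called lower for 17 of 25 tested members and higher for 1, with a median of -0.80; the lower count was 13 without the p75-sorted control and 9 without the mutant, and the 1 higher call was lost without either p75-sorted array, the LM mutant or either UM array. Pecam1, the CD31 adhesion molecule, lay at 2.24 and 1.46 in p75-sorted cells against 128.9 and 128.2 in LM and 76.7 and 87.8 in UM. The difference was -2.0 ± 0.20 (adjusted p = 0.000217), and the p75-sorted values were near an intensity of 0. Emcn, a sialomucin of vessels, lay at 32.6 and 13.4 against 271 to 345, a difference of -2.62 ± 0.18. Kdr, the VEGF receptor, was not called, at 105 and 119 against 119 to 177. The 5 endothelial markers summed to 171 to 188 in p75-sorted cells and 639 to 732 elsewhere.

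Embryonic globins stayed bright. Hba-x lay at 2697 and 2688 in p75-sorted cells against 14853, 8924, 8086 and 13020 on the LM control, LM mutant, UM control and UM mutant, a difference of -2.0 ± 0.26. The erythroid markers summed to 14805 to 17506 in p75-sorted cells and 27340 to 45712 elsewhere, and 5 of 15 tested erythroid genes were called lower, 2 without the p75-sorted control and 1 without the mutant. Among macrophage and leukocyte genes 10 of 21 were called lower and 1 higher, with 3 lower without the p75-sorted control and 2 without the mutant. Pf4, a chemokine of platelets and embryonic macrophages, differed by -1.76 ± 0.19. Aif1 and C1qa, defining genes of macrophages, did not pass the filter on low values.

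Extracellular matrix genes were widely higher in p75-sorted cells. Of 50 tested, 35 were called higher and 4 lower, with a median difference of 1.18, or 0.58 as a mean of probe sets. Col5a1, a fibrillar collagen, lay at 1922 and 2157 against 527 and 327 in LM and 214 and 280 in UM, a difference of 2.55 ± 0.29 (adjusted p = 0.000364). Lama4, a laminin chain of nerve and vessel basement membranes, lay at 746 and 1007 against 122 to 197, a difference of 2.28 ± 0.21. Lama1 differed by 2.30 ± 0.17 and Col4a1, the basement membrane collagen, by 2.11 ± 0.14, at 4279 and 4749 against 972 to 1078. The p75-sorted values of these 4 genes lay above all others. Thbs1, a matricellular protein, went the other way, at 48.5 and 42.2 against 279 to 393, a difference of -2.20 ± 0.18, as did Ogn, a small proteoglycan, at -1.55 ± 0.24. Vtn, an RGD-bearing ligand of integrins, was among the 5 highest genes of all, at 1079 and 915 against 4.58 to 27.2 and a difference of 4.42 ± 0.20.

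Partners of FAK at adhesion sites were higher more often than lower. Of 47 with a probe set 45 were tested, 25 were called higher and 3 lower, with a median difference of 0.62; as a mean of probe sets 18 were higher and 12 lower, with a median of 0.25. Pxn, the paxillin gene, whose product binds FAK, lay at 1336 and 1608 against 387 to 461, a difference of 1.71 ± 0.14 (adjusted p = 0.000108). Git1, a scaffold that links paxillin to Rac, differed by 1.90 ± 0.19, and Fyn, a Src family kinase, by 1.58 ± 0.17. Zyx and Vcl, which join adhesions to actin, differed by 1.56 ± 0.14 and 1.35 ± 0.16. At these probe sets all p75-sorted values of the 5 genes lay above all LM and UM values. Other probe sets went against 2 of them: Vcl had another tested probe set called lower, at -1.67, and Pxn, beside a further one at 1.66, had a dim one called lower, at -0.95. The 3 lower calls of the list fell to 1 without either p75-sorted array in turn, and were 6 after quantile normalization.

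Integrin subunits did not move one way. Itga4, which pairs into the fibronectin and VCAM receptor of crest and of blood cells, lay at 809 and 734 against 118 to 143, a difference of 2.30 ± 0.15 (adjusted p = 4.61e-05). Itgb1, its common partner chain, was lower at this probe set, at 414 and 621 against 930 to 1103 and a difference of -0.96 ± 0.16.

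Receptors and cues of migration were called higher at 43.5%, against 29.6% of all tested genes. They were called lower at 17.4%, near the 18.0% of all tested genes. Of 46 tested, 20 were called higher and 8 lower, with a median of 0.44; without the p75-sorted control 8 were higher and 1 lower, and without the mutant 12 and 1. The lower calls were 3 without the LM mutant and 4 without the UM control. Gfra1, a receptor for GDNF, lay at 847 and 774 against 52.1 to 114, a difference of 2.86 ± 0.22. Its other tested probe sets were dim, differed by 0.33 and 0.01, and were not called. Robo3, a Slit receptor family member of commissural axons, lay at 239 and 171 against 0.538 to 5.38, a difference of 2.76 ± 0.16. It passed the filter on low values only through the p75-sorted arrays and so had to be higher. Nrp1, a semaphorin and VEGF receptor, differed by 1.06 ± 0.21, and Sema3f, a ligand of the neuropilins, by 2.17 ± 0.21. Of the 3 tested probe sets of Sema3f only 1 was called, and the lowest differed by 0.02. Sema3a, another such ligand, was lower by -1.03 ± 0.22. Cxcr4, the chemokine receptor, lay at 21.7 and 11.2 in p75-sorted cells against 83.5 and 97.0 in LM and 256 and 243 in UM, a difference of -1.94 ± 0.39. Gfra2, the neurturin receptor, differed by 2.70 ± 0.27, but by -0.16 where probe sets of the x and s types, whose probes can match several transcripts, were left out.

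Cell cycle genes were lower for 18 of 39 tested members and higher for 2, with a median of -0.30. The lower count was 6 without the p75-sorted control and 4 without the mutant, and the higher count 1 without the mutant and 4 without the LM control. Ttk, a spindle checkpoint kinase, lay at 273 and 212 against 683 to 722, a difference of -1.44 ± 0.15, and Kif11, a spindle motor, differed by -1.19 ± 0.14. Bub1b, another checkpoint gene, was higher by 1.20 ± 0.19, and by 0.39 with adjusted p = 0.052 without the x and s probe sets. Mki67, a general marker of cycling cells, was not called, at 3460 and 4303 against 2403 to 3774.

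The p53 targets and the glycolysis and hypoxia genes lay near the median of all genes, with medians of 0.15 and 0.11, and these turned to -0.06 and -0.10 after centring. Among p53 targets 5 of 21 were called higher and 2 lower; 3 were higher without the p75-sorted control and 1 without the mutant, and 1 to 5 were lower with single arrays left out. With all 6 arrays the p53 target shares were 23.8% higher and 9.52% lower, below the 29.6% and 18.0% of all tested genes. Zmat3, a p53-induced gene, was higher by 0.85 ± 0.14. Among 29 tested glycolysis and hypoxia genes 11 were called higher and 2 lower; 6 were higher without the p75-sorted control, and 4 higher and 1 lower without the mutant. Pfkl, a phosphofructokinase subunit, differed by 2.27 ± 0.16, while Slc2a1, the glucose transporter GLUT1, differed by -1.18 ± 0.14. Cartilage and bone genes had 6 of 14 tested members higher and 1 lower; 3 were higher without the p75-sorted control and 2 without the mutant. With all 6 arrays the cartilage and bone shares were 42.9% higher and 7.14% lower, against 29.6% and 18.0% of all tested genes. Col9a3, a cartilage collagen chain, lay at 85.0 and 88.7 against 4.97 to 6.69, a difference of 1.65 ± 0.14. It passed the filter on low values only through the p75-sorted arrays and so had to be higher.

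Several of the genes most strongly lower in p75-sorted cells are expressed in most cell types. Eif4a1, the RNA helicase of translation initiation, lay at 335 and 309 against 6631 to 8323, a difference of -4.42 ± 0.16 (adjusted p = 5.88e-06). Net1, a RhoA exchange factor, differed by -3.89 ± 0.20. Cox8a and Uqcr10, subunits of the respiratory chain, differed by -3.26 ± 0.16 and -2.80 ± 0.19, and Atp5l, of ATP synthase, by -2.70 ± 0.14. Hmgb2, a chromatin protein, differed by -2.81 ± 0.20 and Ube2s, a ubiquitin-conjugating enzyme, by -3.25 ± 0.20.

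Probe sets of 1 gene disagreed often in this comparison. Eif4a1 differed by -4.42, -2.38 and -0.90 at its 3 probe sets, all bright, and Hmgb2 by -2.81, -0.99 and -0.28. Dcun1d1, a cullin neddylation gene, ranged from -2.69 to 0.22. When each probe set was fitted on its own, 4808 genes with several tested probe sets had at least 1 called, and 761 of them (15.8%) had calls in both directions. Between LM and UM 72 genes had at least 1 called, and 0 had calls in both directions. The Gapdh probe sets toward the 3' and 5' ends also differed on the p75-sorted arrays, as given above, and the position of each probe set in its transcript was not tested. Zic1 had 4.54 and 4.44 at its tested probe sets, whereas Sox10 had 4.63 and 1.78, so sizes of single genes carry an uncertainty beyond their SE.

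**Figure D4:**
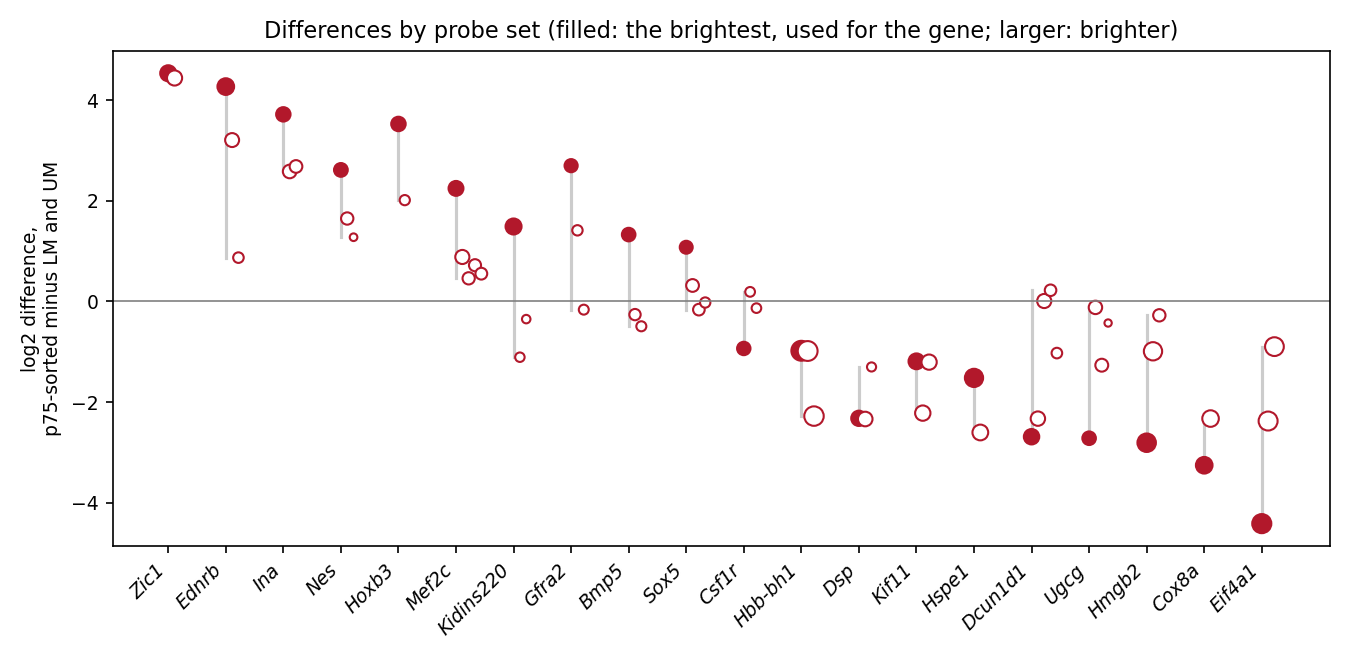
Difference of p75-sorted cells from LM and UM on the log2(intensity + 32) scale for each probe set of 20 genes with several. Filled points are the brightest probe set, used for the gene, open points the others, and larger points are brighter. Probe sets of Zic1 lie together at 4.54 and 4.44, those of Eif4a1 spread from -4.42 to -0.90, and those of Kidins220 lie on both sides of 0.

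The fit was also asked whether genotype acted alike in the sorted and other arrays. A term for whether the mutant-minus-control difference was another in p75-sorted cells than in LM and UM called 1 gene of 12338 (0.00811%), Xist, with limma and Benjamini-Hochberg adjustment, and 237 genes had an unadjusted p under 0.05. With 2 residual degrees of freedom this fit recovered 0% of genes simulated with a 4-fold change. Its count therefore says little about effects of that size or smaller. Xist, the RNA of the inactive X chromosome, lay at 21.0 in the sorted control pool, 2247 in the sorted mutant pool, 4937 and 4985 in LM, and 4903 and 5032 in UM. Its mutant-minus-control difference was 5.43 in p75-sorted cells and 0.03 in LM and UM. Bcl2l11, the apoptosis gene Bim, lay at 805 (control) and 2101 (mutant) after sorting, against 838 to 911 in LM and UM, and Pik3cd, a PI3-kinase subunit, at 394 and 1094 against 105 to 156. Neither passed the threshold for a different genotype effect, with an adjusted p of 0.9998 by limma.

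For the 4 marker genes the mutant-minus-control difference in p75-sorted cells was -0.01 for Fos, 0.10 for Sox10, -0.07 for Zic1 and 0.44 for Ngfr, each from 1 array a genotype with no replicate check. For Ngfr the difference was -0.21 over LM and UM, and the interaction had an adjusted p of 0.9998 by limma.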

How the data were processed

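The deposited values are array intensities on a linear scale, 1 for each of 45101 probe sets, as the authors deposited them, and the sources used here name no software for them. The trimmed mean was 150 on each array, so no further scaling was applied, and intensities were turned into log2(intensity + 32). The supplied platform annotation gave 1 gene for 34945 probe sets, several for 932 (left out) and none for 9160; 64 control probe sets served as quality measures only. For 18193 genes the brightest probe set was kept, and 12338 genes with 2 or more of the 6 arrays above the 40th percentile (an intensity of 25.1) were tested.

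limma 3.58.1 in R 4.3.3 (lmFit, eBayes) was fitted on 6 arrays with terms for sorting and genotype, which left 3 residual degrees of freedom beside a prior of 5.34, and adjusted by the Benjamini-Hochberg method. LM and UM arrays formed 1 comparison group. Each group had 1 array, so no replicate numbers pair samples, and the number of arrays limits the precision. Genes named are the 15 largest called differences on each side whose arrays did not overlap, the 4 largest called members of each of 30 lists (797 genes), all members of the neurotrophin, neuregulin, Zic and sex-linked lists, the marker genes, and 5 genes in each direction for the interaction; not all are printed. Jun, Junb, Ier2, Atf3, Klf6, Dusp1, Srf, Dusp6, Plk2, Egr2, Hand2, Hoxa2, Hoxb2, Hoxa9, Hoxb6, Snai2, Col4a1, Thbs1, Ogn, Itgb1, Zyx, Vcl, Cxcr4, Nrp1, Sema3a, Sema3f and Mki67 were chosen after their values were seen. The comparison, the lists and the named-gene rule were chosen with earlier results of these data known. Lists are described by counts and medians, with no set test. On simulated data of 12338 genes the comparison recovered 48% of 2-fold and 88% of 4-fold changes, and 2.16% of its calls were false. Alternatives covered the pseudocount, filter, scaling, probe sets, terms of the fit, comparison group and each array left out; fitting every probe set on its own was added after seeing the data. OFT arrays entered only the alternative with all 8 arrays.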

Additional observations from a re-analysis of the deposited data

Results flagged for a closer look

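Xist had a genotype difference in p75-sorted cells that was not shared by LM and UM. The difference between the 2 mutant-minus-control values was 5.40 ± 0.28 on the log2 scale (limma interaction term, adjusted p = 0.0115). It rests on the sorted control pool, at 21.0, against 2247 in the sorted mutant pool and 4903 to 5032 on the 4 LM and UM arrays. Of the Y-linked genes in the sex-linked list, Eif2s3y had 386 (control) and 140 (mutant) in the sorted pair, and Kdm5d 302 and 85.7. The labels do not give the sex of the pooled embryos, and its part in the difference was not tested.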

How the results depend on the processing

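Across the alternatives that kept all 6 arrays or added OFT, 5081 to 6521 genes were called in p75-sorted against LM and UM. Against LM alone 5090 were called, and against UM alone 6658. Leaving out 1 array at a time gave 2351 to 6235 in all, 1587 to 3832 higher and 764 to 2403 lower; the lowest values came without the p75-sorted mutant array, and without the p75-sorted control they were 3010, 1935 and 1075. A lone p75-sorted array was then assumed to vary like the others. Centring each array on its median gave 3389 lower genes against 2227. The interaction called 0 genes with a pseudocount of 1 instead of 1 gene; 237 had an unadjusted p under 0.05 in the main setting. Of 145 named genes 137 were called. Of these, 96 kept direction and call under every alternative in which they were tested, while 136 kept direction. The exception in direction was Gfra2, at -0.16 without the x and s probe sets. An alternative that did not test a gene was passed over for it. The filter at the 60th percentile tested 120 of the 137, and the mean of probe sets 134. Without the x and s probe sets 134 were tested. Without the p75-sorted control 24 of the 137 lost their call, and without the p75-sorted mutant 28. Of genes not called, Nradd (-0.02) turned to 0.12 against LM alone, 0.017 without the p75-sorted mutant and 0.082 without the UM mutant. Egfr (0.08) turned to -0.13 after quantile normalization and after centring, to -0.14 against UM alone, to -0.068 without the p75-sorted mutant and to -0.066 without the LM control; arrays left out in turn gave up to 0.26. Erbb2 (0.22) turned to -0.11 without the p75-sorted mutant and was 0.56 without the p75-sorted control. The cause of these changes was not tested. No paired analysis was possible because each group has 1 array and replicate 1 is its only number. Dim genes are limited by background, since log2(intensity + 32) cannot go below 5.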

Other observations

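Genes outside the lists described above were among the highest in p75-sorted cells. Ttr, the thyroid hormone carrier transthyretin, lay at 989 and 464 on the p75-sorted control and mutant arrays and between 0.324 and 3.73 on the LM and UM arrays. Megf10, an engulfment receptor of glia and muscle progenitors, lay at 1694 and 2364 against 63.2 to 163, a difference of 3.90 ± 0.31. Gpr17, a receptor of oligodendrocyte precursors in the brain, lay at 485 and 591 against 2.08 to 15.5. Spon1, a secreted axon guidance protein of the floor plate, differed by 3.73 ± 0.18, and Egfl8 by 3.72 ± 0.21. For each of these 5 genes both p75-sorted arrays lay above all 4 LM and UM arrays. Ttr and Gpr17 passed the filter on low values only through the p75-sorted arrays and so had to be higher.

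The OFT arrays, which the comparison left out, had Fos intensities of 55.9 (control) and 88.0 (mutant), Ngfr intensities of 149 and 104, and Zic1 intensities of 9.03 and 7.68. Ttr lay at 814 on the OFT control and 6.82 on the OFT mutant, so it was not high in p75-sorted cells alone.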
